A study of Mus musculus with 4 samples.

Results

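The mature miRNAs of the miR-7 and miR-671 hairpins were examined in the cortex of AD and wild-type mice. They were taken from the deposited count table by name, as every entry named miR-7 or miR-671 with any letter, copy or arm, let-7 not included, which gave 7 of its 942 mature miRNAs. Both arms of each hairpin were among them: miR-7a-5p and miR-7b-5p with the 3p arms miR-7a-1-3p, miR-7a-2-3p and miR-7b-3p, and miR-671-5p with miR-671-3p. Small RNA was sequenced from the cortex of 2 WT mice (WT1 and WT2) and 2 AD mice (APP3 and APP4) of the B6C3 strain, all aged 9 months. The AD mice carry the APPswe transgene, a chimeric mouse/human APP with the Swedish mutation, and the PS1deltaE9 transgene, a human presenilin 1 without exon 9, both directed to neurons of the central nervous system, and the WT mice carry neither. By the study's methods APP4 was a sibling of WT1 and APP3 a sibling of WT2, which gives a pair of sibling comparisons.

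A miRNA hairpin is cut into a duplex of its 5p and 3p arms, of which Argonaute keeps mainly one, the guide, while the other, the passenger, is mostly lost. A guide finds its targets chiefly through its seed, bases 2 to 8. miR-7 is an ancient miRNA of neurons and endocrine cells and is known to repress alpha-synuclein. In the mammalian brain its guide is bound by Cdr1as, a circular RNA of neurons with many miR-7 sites, and Cdr1as in turn holds a nearly complete site for miR-671-5p, through which it is cleaved. A second noncoding RNA, Cyrano, pairs with miR-7 along most of its length and is known to trigger its degradation, and brains of mice that lack Cdr1as are known to hold less miR-7. Neither Cdr1as nor Cyrano is counted in a table of miRNAs, so their levels were not analysed here.

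The mature sequences are shown because the seeds set which members share targets, and because some members are nearly identical. RefSeq on GRCm38.p6 held an entry for all 7, and the seed is in capitals.
miR-7a-5p: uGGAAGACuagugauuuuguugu
miR-7b-5p: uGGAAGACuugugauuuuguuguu
miR-7a-1-3p: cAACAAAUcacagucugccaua
miR-7a-2-3p: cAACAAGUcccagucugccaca
miR-7b-3p: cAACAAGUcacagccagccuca
miR-671-5p: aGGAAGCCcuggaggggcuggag
miR-671-3p: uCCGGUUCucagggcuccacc

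miR-7a-5p and miR-7b-5p share the seed GGAAGAC, and no other mature miRNA of the RefSeq table has it. Counted from 1 at the 5′ end of miR-7a-5p, the only substitution between them is A10U, and miR-7b-5p is 1 base longer. The study's methods give a tolerance for mismatches in one step and exact matching to miRBase in another, so whether reads were exchanged between them cannot be told. miR-7a-2-3p and miR-7b-3p share the seed AACAAGU and differ by 4 substitutions, and miR-7a-1-3p has a seed of its own. The seed of miR-671-5p differs from that of miR-7a-5p by A7C.

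In GENCODE vM21 on GRCm38, the build of the study's methods, miR-7a-5p comes from a pair of hairpins. Mir7-1 lies at chr13:58392779-58392886 on the minus strand, in an intron of Hnrnpk. Mir7-2 lies at chr7:78888277-78888373 on the plus strand and overlaps no annotated gene. Their 5p arms are identical in sequence, and only their 3p arms tell the hairpins apart. Mir7b lies at chr17:56242988-56243098 on the plus strand, also outside annotated genes. Mir671 lies at chr5:24592114-24592211 on the plus strand, within coding sequence of an exon of Chpf2 and opposite to an exon of a transcript of Smarcd3. Fragments of Chpf2 mRNA from this place would have the sequence of the hairpin.

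The circuit can be read from the reference sequence of its other partners. The exon that forms Cdr1as lies at chrX:61183248-61186174 on the plus strand, is annotated in C230004F18Rik and is 2927 bases long. It holds 123 copies of GTCTTCC, the match to bases 2 to 8 of miR-7, with a median of 18 bases between their starts and none on the opposite strand. Of 25516 windows of this length taken from the start of other GENCODE transcripts, 23.9% hold at least 1 copy and none holds more than 4. The match to the seed of miR-671-5p, GGCTTCC, occurs once and is found in 29.3% of the same windows. The Cdr1as sites below were chosen for the most complementary bases over the whole miRNA, aligned without gaps. The Cyrano site was sought differently. It had to match the seed and the first base, and extra unpaired target bases were allowed before the rest of the pairing. The capitals mark the match to the seed.
Cdr1as site of miR-671-5p: ttccagcatctccagGGCTTCCa
Cdr1as site of miR-7a-5p: tccagaaaaatccaaGTCTTCCa
Cyrano site of miR-7a-5p: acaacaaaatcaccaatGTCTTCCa

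The site of miR-671-5p, at chrX:61186029-61186051, has a complementary base for 19 of the 23 bases of the miRNA, and its first 4 bases are also the last bases of a miR-7 seed match. The closest miR-7 site of Cdr1as, at chrX:61183571-61183593, has one for 16 of 23. The site in Cyrano, at chr2:119602137-119602161 in an exon of 1700020I14Rik, has one for 21 of 23. It spans 25 bases, since its search allowed a gap, so its count is not the same measure as those of Cdr1as. These matches describe the reference sequence and no binding was measured. The map of the exon shows how the sites are spread.

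**Figure D1:**
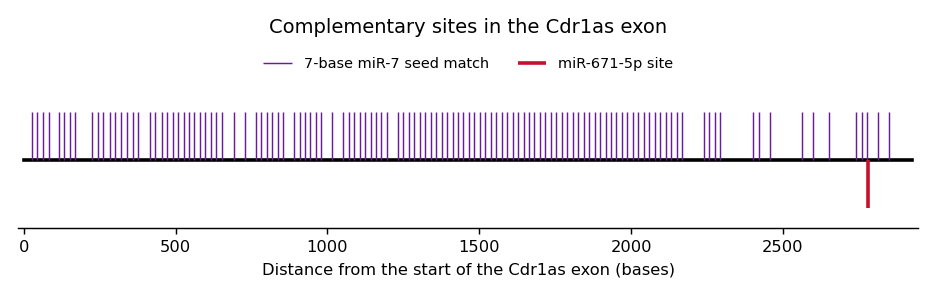
Position of complementary sites along the Cdr1as exon, in bases from its start. Purple lines above the bar mark the 123 matches to bases 2 to 8 of miR-7, which run through nearly the whole exon, and the red line below it marks the 1 site of miR-671-5p near its end.

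The libraries held between 19048747 and 26085776 miRNA reads, and levels are reads per 1000000 of these (RPM), in which 3 reads correspond to between 0.115 and 0.157 RPM. The 7 members took between 0.0477% and 0.0762% of the miRNA reads. The brain miRNAs of a list of 7, among them miR-124-3p and miR-9-5p, were read in every library, with a summed level between 76088 and 84238 RPM. The sums of 3 oligodendrocyte miRNAs, 1793 to 2140 RPM, of 5 microglial and leukocyte miRNAs, 1125 to 1313 RPM, of 2 endothelial miRNAs, 7322 to 9135 RPM, and of 3 erythroid miRNAs, 3206 to 4626 RPM, had narrower ranges than the miR-7 guides, though single miRNAs of the lists moved. By the Fisher rule described below for the levels, 11.6% of miRNAs tested were called in APP4 against WT1 and 6.81% in APP3 against WT2. In APP4 against WT1, 1 of the 7 brain, 2 of the 5 microglial and leukocyte and 2 of the 3 erythroid miRNAs were called. In APP3 against WT2 these counts were 1, 1 and 0. None of the oligodendrocyte and endothelial miRNAs was called in either pair. In RPM, 3 of the 5 microglial and leukocyte miRNAs were higher in both AD mice, as were 2 of the 7 brain and 1 of the 2 endothelial ones. Of 623 miRNAs 27% were higher in both AD mice. Among the erythroid miRNAs 1 of 3 was lower in both, as were 8.99% of the 623. Of 6 miRNAs of the pituitary and of miR-200 expressing epithelium, which summed to 1226 RPM in APP4 and to between 169 and 197 RPM elsewhere, 5 were called in APP4 against WT1 and 3 in APP3 against WT2. The log2 fold changes of miR-200a-3p were 4.90 and -0.74, and those of miR-200b-3p 3.20 and -0.70. The genotype estimates of the members are therefore also given without APP4, and the part of the marker miRNAs in any result of the members was not tested. TMM normalization, which removes a shift shared by most miRNAs, moves every log2 fold change by -0.25 in APP4 against WT1 by -0.02 in APP3 against WT2, by -0.11 in WT2 against WT1 and by -0.13 in APP4 against APP3. In cortex tissue, fewer cells of a type and less miRNA per cell cannot be told apart.

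The miR-7 guides were highest in WT1 and lowest in APP3. miR-7a-5p had 7951 reads (305 RPM) in WT1 and 3677 (193 RPM) in its sibling APP4, and 4234 (192 RPM) in WT2 and 1858 (87.4 RPM) in its sibling APP3. The genotypes overlapped, since WT2 and APP4 had nearly the same level. With TMM they did not overlap, at 331 and 194 in the WT mice against 87.2 and 176 in the AD mice. The share of all miRNAs that do not overlap with TMM was not counted. The WT mice averaged 248 ± 79.9 RPM (SD, n = 2) and the AD mice 140.2 ± 74.7 RPM (SD, n = 2).

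miR-7b-5p, the other guide of the family, was likewise highest in WT1 and lowest in APP3. It had 3190 reads (122 RPM) in WT1 and 1534 (80.5 RPM) in APP4, and 1818 (82.3 RPM) in WT2 and 819 (38.5 RPM) in APP3. Both AD mice lay below both WT mice, by a small margin between WT2 and APP4. It was the 1 member of 7 lower in both AD mice in RPM, as were 8.99% of 623 miRNAs, and miR-671-3p was the 1 member higher in both, as were 27% of them, or 36% in either direction. The WT mice averaged 102 ± 28.2 RPM (SD, n = 2) and the AD mice 59.5 ± 29.7 RPM (SD, n = 2). For each guide the gap between the mice of a genotype was of the size of the difference between the means. The mice of a genotype were of different sibling pairs, and in both genotypes the mouse of the pair WT1 and APP4 was higher.

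From the highest to the lowest library, miR-7a-5p differed 3.49-fold and miR-7b-5p 3.18-fold. The median of this ratio was 1.37 over the 252 miRNAs that averaged 50 RPM or more, and 10 had a larger one than miR-7a-5p. The levels of the guides were thus among the most variable of the abundant cortex miRNAs, with the extremes in mice of different genotypes and different pairs.

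**Figure D2:**
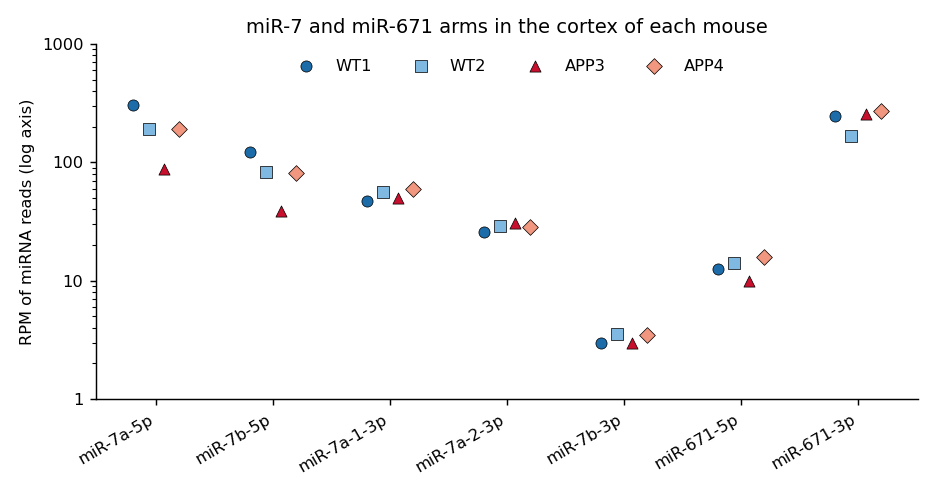
Level of each miR-7 and miR-671 arm in the cortex of the 4 mice, in RPM on a log axis, with 1 point per mouse. The points of miR-7a-5p range from 87.4 RPM in APP3 to 305 RPM in WT1 and those of miR-7b-5p from 38.5 RPM in APP3 to 122 RPM in WT1, while the points of the 3p arms of miR-7 lie close together.

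The reads of both guides kept a nearly constant ratio. For each read of miR-7b-5p there were 2.49 reads of miR-7a-5p in WT1 and 2.40 in APP4, and 2.33 in WT2 and 2.27 in APP3. The log2 of this ratio changed by -0.06 (SE 0.05, counting error only) in APP4 against WT1 and by -0.04 (SE 0.07) in APP3 against WT2, and neither passed Fisher's exact test (FDR 0.468 and 0.809). The spread of the ratio over the 4 mice was far smaller than that of either guide. Since reads may have been exchanged between the guides, their sum was also used, with 427 RPM in WT1 and 273.6 in APP4, and 274.1 in WT2 and 125.9 in APP3. The mean of the log2 sum was lower in the AD mice by a difference of -0.88, with p = 0.333 in a two-sided exact permutation test, the smallest p that 2 against 2 mice allow.

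The 3p arms of miR-7, its passengers, were nearly level across the mice. miR-7a-1-3p, from Mir7-1, had 47.0 RPM in WT1 and 59.0 in APP4, and 56.2 in WT2 and 49.6 in APP3. miR-7a-2-3p, from Mir7-2, had 25.6, 28.2, 28.8 and 30.8 RPM in the same order, and miR-7b-3p had 2.99, 3.46, 3.53 and 2.96 RPM, from 63 to 78 reads. For each of the 3 arms the genotypes overlapped, and the ratio of the highest to the lowest library was between 1.19 and 1.26. With TMM the first 2 still overlapped, and miR-7b-3p did not, with 2.96 and 3.16 in the AD mice against 3.25 and 3.57 in the WT mice. Here too the share over all miRNAs with TMM was not counted. Their differences between the genotypes were small, and the direction turned with the scaling in some fits.

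Since the 5p arms of Mir7-1 and Mir7-2 are identical, only the 3p arms show how reads were divided between the hairpins. miR-7a-1-3p made up 64.7% of the 3p reads of both in WT1 (95% Wilson interval 62.5 to 66.8) and 67.7% in APP4 (65.4 to 69.9), and 66.1% in WT2 (63.9 to 68.2) and 61.7% in APP3 (59.4 to 64.0). Such intervals cover counting error only, as PCR copies of a molecule are not independent. The share lay lowest in APP3 and highest in APP4, so the AD mice enclosed the WT mice.

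The balance of the arms compares reads of the same library and does not depend on how libraries are scaled. The 5p arm of miR-7a made up 80.8% of the reads of its hairpins in WT1 (79.98 to 81.54) and 68.9% in APP4 (67.6 to 70.1), and 69.3% in WT2 (68.1 to 70.4) and 52.1% in APP3 (50.4 to 53.7). In WT1 the guide thus outnumbered the passengers 4.20-fold, and in APP3 1.09-fold. The share in WT2 and that in APP4 lay within each other's interval. For miR-7b the 5p share was 97.6% in WT1 (97.0 to 98.1) and 95.9% in APP4 (94.8 to 96.7), and 95.9% in WT2 (94.9 to 96.7) and 92.9% in APP3 (91.0 to 94.4). For both, the share was highest in WT1 and lowest in APP3, as the levels of the guides were.

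Arm balance was tested by Fisher's exact test in 282 hairpins with reads of both arms, with the FDR over these tests, and counted as called past both an FDR of 0.05 and a 1.5-fold change. In APP4 against WT1, 14.5% of the hairpins were called, and in APP3 against WT2 14.2%, of which the 5p share was lower in 8.51% of all hairpins each time. The log2 ratio of the 5p to the 3p arm of miR-7a changed by -0.92 (SE 0.06, FDR 2.16e-58) in APP4 against WT1 and by -1.05 (SE 0.06, FDR 4.66e-62) in APP3 against WT2. That of miR-7b changed by -0.82 (SE 0.24, FDR 0.00422) and by -0.84 (SE 0.25, FDR 0.00438). Both fell past the limits in each sibling pair. Between the WT mice, where 18.1% of the hairpins were called and 11.3% with a lower 5p share in WT2, WT2 differed from WT1 by -0.90 for miR-7a and -0.81 for miR-7b. Between the AD mice, with 15.6% called, APP4 differed from APP3 by 1.03 and 0.84. These differences within a genotype were called too and were of the size of those in the sibling pairs. In both genotypes the ratios were higher in the mouse of the pair WT1 and APP4.

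Over the 4 mice the log2 ratio of the arms was lower in the AD mice by a difference of -0.99 for miR-7a and -0.83 for miR-7b, with p = 0.333 for each in the exact permutation test, again the smallest p possible. Both AD mice lay below both WT mice, as they did for 16.7% of all hairpins, while 30.1% did not overlap in either direction. WT2 and APP4 were nearly tied, with log2 ratios of 1.17 and 1.15 for miR-7a and 4.534 and 4.528 for miR-7b. In a limma fit over the 282 hairpins, chosen after the data were seen, the SE was 0.53 and 0.47 and the adjusted p 0.825 for both, while 0 hairpins passed an adjusted p of 0.05 and 15 an unadjusted one. With the sibling pair as a block in limma, the SE was 0.29 and the adjusted p 0.697 for both miR-7a and miR-7b. Again 0 hairpins passed an adjusted p of 0.05.

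**Figure D3:**
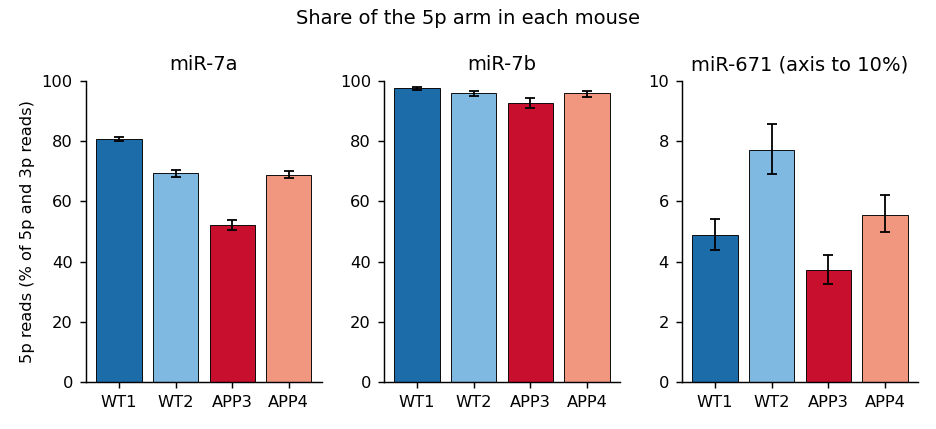
Share of 5p reads among the 5p and 3p reads of miR-7a (both hairpins together), miR-7b and miR-671 in each mouse, in percent, with 95% Wilson intervals of counting error as error bars and a shorter axis for miR-671. The bars of miR-7a fall from 80.8% in WT1 to 52.1% in APP3, with WT2 and APP4 level between them.

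miR-671-5p, the arm that pairs with Cdr1as, was the minor arm of its hairpin. It had 330 reads (12.7 RPM) in WT1 and 303 (15.9 RPM) in APP4, and 310 (14.04 RPM) in WT2 and 211 (9.92 RPM) in APP3. The AD mice were the lowest and the highest of the 4, so the genotypes overlapped. Its reads amounted to 2.96% of those of the miR-7 guides in WT1 and 5.81% in APP4, and to 5.12% in WT2 and 7.88% in APP3, a ratio of reads and not of molecules, since adapters join to different miRNAs with unequal efficiency.

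miR-671-3p, the abundant arm, had 6448 reads (247 RPM) in WT1 and 5149 (270.3 RPM) in APP4, and 3715 (168 RPM) in WT2 and 5485 (258 RPM) in APP3. WT2 alone lay well below the others. Both AD mice were above both WT mice in RPM, and with TMM they were not, with 269 in WT1 against 257 and 246 in the AD mice. The WT mice averaged 208 ± 55.8 RPM (SD, n = 2) and the AD mice 264 ± 8.76 RPM (SD, n = 2).

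The 5p share of miR-671 was 4.87% in WT1 (4.38 to 5.41) and 5.56% in APP4 (4.98 to 6.20), and 7.70% in WT2 (6.92 to 8.57) and 3.70% in APP3 (3.24 to 4.23). Its log2 arm ratio changed by 0.20 (SE 0.12, FDR 0.191) in APP4 against WT1, which was not called, and by -1.12 (SE 0.13, FDR 1.54e-16) in APP3 against WT2, which was. The WT mice differed by 0.71 and the AD mice by 0.61, and both of these were called. The mean of the AD mice was lower by a log2 difference of -0.46, with overlapping genotypes and p = 0.667 in the exact permutation test.

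The levels were also compared within each sibling pair by Fisher's exact test on the reads of all miRNAs, with the same limits for a call. In APP4 against WT1, 11.6% of 899 miRNAs were called, 9.68% as higher and 1.89% as lower, and of the 7 members the 2 miR-7 guides were called, both as lower. The fold was 1.58 for miR-7a-5p and 1.52 for miR-7b-5p, just past the limit. None of the other 5 was called, and miR-7a-1-3p (log2 fold change 0.33, SE 0.06), miR-671-5p (0.33, SE 0.11) and miR-671-3p (0.13, SE 0.03) had an FDR under 0.05, where 40.3% of all miRNAs did. The median log2 fold change was 0.14 over the members and 0.21 over all miRNAs tested. With TMM, miR-671-3p turned to -0.12 and the guides moved to -0.91 and -0.86.

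In APP3 against WT2, 6.81% of 896 miRNAs were called, 3.35% as higher and 3.46% as lower, and 3 members were called. Both guides were lower, 2.20-fold for miR-7a-5p and 2.14-fold for miR-7b-5p, and miR-671-3p was 1.53-fold higher (FDR 1.98e-90). The log2 fold change of miR-671-5p was -0.50 (SE 0.13, FDR 0.000377), under the limit of 1.5-fold. That of miR-7a-1-3p was -0.18 (SE 0.06, FDR 0.00955), and those of miR-7a-2-3p and miR-7b-3p, 0.10 (SE 0.08) and -0.25 (SE 0.24), did not pass the FDR of 0.05, which 36% of all miRNAs did and 5 of the 7 members. The median was -0.25 over the members and 0.05 over all miRNAs. Each of these tests compares 2 libraries and carries no error between mice.

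**Figure D4:**
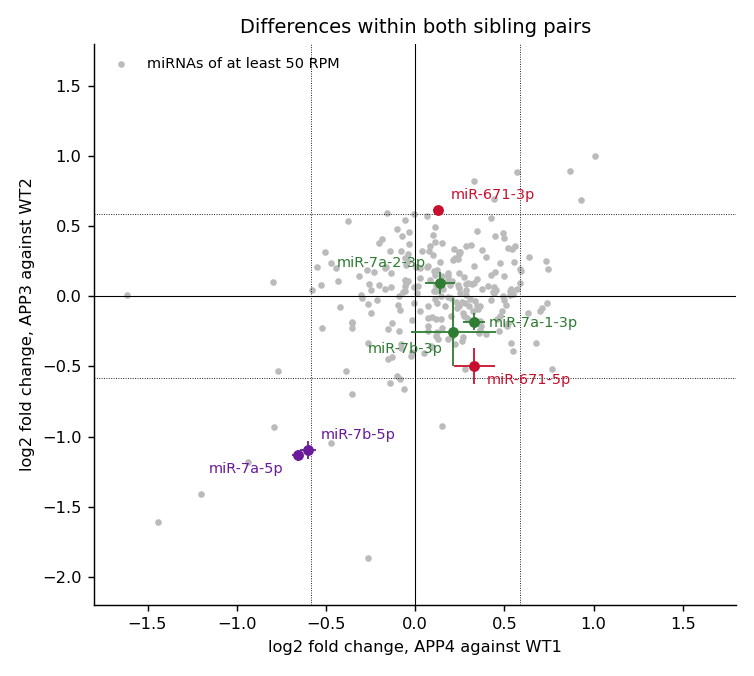
Log2 fold changes of the AD against the WT mouse in both sibling pairs, with counting SE as error bars for the members and a grey point for each of 252 miRNAs of at least 50 RPM, 5 of which lie outside the axes. Dotted lines mark 1.5-fold. The miR-7 guides lie together at the lower left, below 1.5-fold in both pairs, apart from their 3p arms and from miR-671.

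The same test between mice of one genotype, which were of different sibling pairs, gave differences of like size. Of 879 miRNAs, 10.1% were called between the WT mice, 2.5% as lower in WT2, and miR-7a-5p was the 1 member among these, lower in WT2 by a log2 fold change of -0.67 (SE 0.03), as large as its -0.66 (SE 0.03) in APP4 against WT1. miR-7b-5p, at -0.57 (SE 0.04), and miR-671-3p, at -0.55 (SE 0.03), lay just under the limit. Of 907 miRNAs, 8.05% were called between the AD mice, 5.07% as higher in APP4, and 3 members were higher in APP4 than in APP3, miR-7a-5p by 1.14 (SE 0.04), miR-7b-5p by 1.06 (SE 0.06) and miR-671-5p by 0.68 (SE 0.13), which with TMM was 0.55 and not called. The AD mice thus differed from each other in the guides about as much as APP3 differed from its sibling WT2, by -1.13 and -1.10.

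With the mice as replicates, all 7 members passed the filter on low counts, and edgeR's quasi-likelihood test gave 0% of 623 miRNAs an adjusted p under 0.05 and 5.78% an unadjusted one. Among the latter were 2 members, the miR-7 guides. The log2 fold change of miR-7a-5p in the AD mice was -0.996 (SE 0.39, adjusted p = 0.768), and 25 miRNAs had a smaller p. That of miR-7b-5p was -0.95 (SE 0.36, adjusted p = 0.768). miR-671-3p had 0.20 (SE 0.26), miR-671-5p -0.19 (SE 0.24), miR-7a-1-3p -0.06 (SE 0.21), miR-7a-2-3p -0.01 (SE 0.21) and miR-7b-3p -0.16 (SE 0.24), each smaller than its SE. By DESeq2's Wald test 0 of 942 miRNAs had an adjusted p under 0.05 and 28 an unadjusted one, among them 2 members. In edgeR with the sibling pair as a block, miR-7a-5p had -1.03 (SE 0.20, adjusted p = 0.116). In that fit miR-7b-5p had -0.98 (SE 0.22, adjusted p = 0.198).

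The size of the estimates for the guides depended on which mouse was left out. Without APP4, the library with the higher pituitary and epithelial miRNAs, edgeR gave miR-7a-5p -1.60 and miR-7b-5p -1.50. That fit rests on 2 WT mice and a lone AD mouse that is assumed to vary as the WT mice did. Only the size is therefore given for each fit with a mouse left out. The other members then had -0.51 for miR-671-5p, 0.22 for miR-671-3p, -0.13 for miR-7a-1-3p, 0.099 for miR-7a-2-3p and -0.22 for miR-7b-3p. Without APP3 miR-7a-5p and miR-7b-5p had -0.58 and -0.56, and without WT1 -0.56 and -0.58. Without WT2 they had -1.29 and -1.21. Both guides were lower in the AD mice each time, from -0.56 to -1.60 for miR-7a-5p and from -0.56 to -1.50 for miR-7b-5p.

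The miRNAs whose profile over the 4 libraries was most like that of miR-7a-5p were sought among the same abundant miRNAs, by the root mean square distance of their centred log2 RPM. miR-7b-5p was by far the nearest, at 0.05, followed by miR-146b-5p, a miRNA of inflammatory signalling, at 0.35, miR-221-5p at 0.38, miR-185-5p at 0.44 and miR-145a-5p, a miRNA of vascular smooth muscle, at 0.45. miR-146b-5p had 4253 RPM in WT1 and 3326 in APP4, and 3832 in WT2 and 2365 in APP3, with the same mice highest and lowest as for the guides. For miR-7b-5p the same miRNAs came in the same order after miR-7a-5p. Nearest to miR-671-5p was miR-34a-5p, at 0.03, with 157 and 191 RPM in WT1 and APP4 and 178 and 124 RPM in WT2 and APP3. Then came miR-1224-5p, let-7g-5p, let-7b-5p and miR-434-5p, at 0.10 to 0.11. Nearest to miR-671-3p were miR-664-5p, at 0.08, miR-30c-2-3p, miR-708-3p, miR-381-3p and miR-301a-3p, at 0.10 to 0.12. The arms of miR-671 therefore had no neighbour in common, and these are descriptions over 4 libraries.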

How the data were processed

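Small RNA of the cortex of 4 mice was sequenced on an Illumina sequencer, with base calls by CASAVA 1.8 per the submitters' processing notes. The authors filtered out adapters, reads of low quality and reads outside the length of small RNAs, matched the rest to miRBase and deposited counts per mature miRNA, not normalized. A further set of columns, deposited under the name TPM, holds RPM of the clean reads, unlike the RPM of the report, which is of miRNA reads, and served only to recover 22851004 to 31265701 clean reads per library. The study's methods name GRCm38 and the processing notes mm9, and the table holds no coordinates.

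Counts were scaled to the sum of each library. Fisher's exact tests, two-sided (scipy 1.17.1), with Benjamini-Hochberg FDR ran over all miRNAs, or all hairpins for the arms, with 0.5 read added for log2 values. At least 10 reads of each arm over the 4 libraries were required. Genotypes were compared with edgeR 4.0.16 (filterByExpr, TMM, quasi-likelihood), DESeq2 1.42.0 and, for arm ratios, limma 3.58.1 (R 4.3.3). The SE of an edgeR log2 fold change is its size over the square root of F. Fisher's p-values carry counting error only. Those of edgeR, DESeq2 and limma set the difference between the genotypes against a spread between mice, which is estimated with help from the other miRNAs or hairpins. Fisher's rule, edgeR and limma were run on simulated data only to check that they worked. The simulation for edgeR had a dispersion of 0.01, less than in these mice (biological coefficient of variation 24.0%). That for Fisher's rule had counting error alone. The named miRNAs were the members, those with a shared seed, the 5 nearest profiles of each of the guides and miR-671 arms, and marker lists. The members and lists were chosen with earlier results of these data known. The sibling pairs come from the study's methods, and deviations of siblings from their genotype means correlated with r = 0.235 across 252 miRNAs.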

Additional observations from a re-analysis of the deposited data

Results flagged for a closer look

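For 3 members and 1 arm balance the AD mouse lay above its WT sibling in APP4 and below it in APP3. With 1 mouse of each genotype in a pair, this difference was not tested. The log2 fold changes in APP4 against WT1 and in APP3 against WT2 were 0.33 and -0.50 for miR-671-5p, 0.33 and -0.18 for miR-7a-1-3p, and 0.21 and -0.25 for miR-7b-3p. The log2 ratio of miR-671-5p to miR-671-3p changed by 0.20 and -1.12. For miR-671-5p and miR-7a-1-3p the FDR was under 0.05 in both pairs, and for miR-7b-3p, with 63 to 78 reads, in neither (0.578 and 0.535). The change of library size by TMM turned miR-7b-3p to -0.04 in APP4 against WT1. It left miR-671-5p at 0.08 and miR-7a-1-3p at 0.08 there, with an FDR of 0.704 and 0.385 by Fisher's exact test. Outside the members, let-7b-5p also had opposite directions, with 0.37 and -0.21 before TMM. It was picked as one of the nearest profiles of miR-671-5p, so it cannot show how common they were. How many of all miRNAs had opposite directions was not counted.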

How the results depend on the processing

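The miR-7 guides stayed called as lower in both sibling pairs with TMM, clean reads, values scaled to 1000000, a minimum of 10 RPM, 5 added reads and Bonferroni. With a 2-fold limit 0 members were called in APP4 against WT1 and 0 between the WT mice. That limit also lost the calls of miR-671-3p in APP3 against WT2 and of miR-671-5p in APP4 against APP3 (2 members left in each). With the guides summed, their sum stayed called in both sibling pairs, as the 1 call in APP4 against WT1 and beside miR-671-3p in APP3 against WT2. With TMM 3 members were called in WT2 against WT1 and 2 in APP4 against APP3, without miR-671-5p. TMM turned miR-7b-3p to -0.039, miR-7a-2-3p to -0.11 and miR-671-3p to -0.12 in APP4 against WT1, and miR-671-3p to -0.063 in APP4 against APP3. Scaled and rounded, miR-7b-3p had -4.18e-05 in APP4 against WT1. Of 146 log2 fold changes of members under these alternatives, 133 kept direction and call. The minimum of 10 RPM, the 2-fold limit, Bonferroni and the summed guides could change only the call, not the direction. In edgeR, the sibling pair as a block changed no call of a member (2 of 623 miRNAs passed against 0), with adjusted p = 0.116 for miR-7a-5p and 0.198 for miR-7b-5p. miR-7a-2-3p turned to 0.0073 with DESeq2's size factors, 0.013 in DESeq2's Wald test, 0.12 without TMM and 0.016 without a filter, and miR-7a-1-3p to 0.074 without TMM. With mice left out, miR-7a-2-3p lay between -0.15 and 0.099, miR-7a-1-3p between -0.15 and 0.054, miR-671-5p between -0.51 and 0.054, miR-671-3p between -0.057 and 0.56, the miR-7 sum between -1.44 and -0.32, and the arm ratio of miR-7a between -1.50 and -0.48. That of miR-7b lay between -1.25 and -0.41, that of miR-671 between -0.81 and -0.10, and the ratio of the guides between -0.10 and 0.0017, above 0 without WT1. The cause of these changes was not tested. miR-7b-3p had the fewest reads of the members, 63 to 78.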
